A study of Mus musculus with 15 samples.

Results

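Met and 9 genes beside it on mouse chromosome 6, Mdfic, Tfec, Tes, Cav2, Cav1, Capza2, St7, Wnt2 and Cttnbp2, were followed through mammary tumors and mammary glands profiled by RNA-seq. These 10 genes, of 51826 in the deposited tables, were chosen by their position beside Met and with their levels in these libraries known, so their levels are given here as a description, with no test. The tables hold 15 libraries of 13 mice labelled FVB: 4 control glands, 3 non-TRIM24 tumors and, from Trim24COE mice, 3 carcinomas and 3 metaplastic carcinosarcomas. Trim24COE mice carry a FLAG-tagged mouse Trim24 transgene behind a floxed stop cassette and MMTV-Cre, which removes the stop in mammary epithelium. The mice whose genomes the study sequenced to place the transgene shared a founder, and the founder of the mice profiled here is not stated. Control glands were undiseased glands of mice that carry MMTV-Cre alone, matched for age according to the study's text. The ages of single mice are not in the labels, but the study's tumor list gives one for each Trim24COE mouse used here. Non-TRIM24 tumors arose spontaneously, and their genotype is labelled as unknown. For these tumors the study's text names mice of either FVB or a mixed FVB background, which the labels do not tell apart. The tumor classes are those of the labels, and the pathologists of the study did not give the same diagnosis for tumors 89, 567 and 3956. For every Trim24COE tumor here except 3956, the study's tumor list also holds a call based on RNA-seq, which matches the label. How far this call set the labels is not stated. The 2 deposited tables are called batch 1 and batch 2 here. Batch 1 holds 10 libraries, 1 for each Trim24COE tumor and control gland. Batch 2 holds the non-TRIM24 tumors and repeat libraries of control gland 133 and tumor 3956, so the non-TRIM24 tumors are read beside those repeats and not tested against batch 1. Where differences from the median gland are given for them, the glands are those of batch 1.

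Met encodes the receptor tyrosine kinase for hepatocyte growth factor (HGF), which is secreted mainly by stromal cells as an inactive precursor and is cut by serine proteases into the form that binds the receptor. Activated MET recruits GAB1, GRB2 and phosphatidylinositol 3-kinase and drives growth, scattering and branching of epithelia, the mammary gland included. The neighbors of Met belong to unrelated families. Capza2 encodes a subunit of the actin capping protein, Tes a focal adhesion protein, Cav1 and Cav2 the coat proteins of caveolae, St7 a membrane protein studied as a candidate tumor suppressor, Mdfic a regulator of transcription factors, Wnt2 a secreted ligand of the WNT family, Cttnbp2 a cortactin-binding protein of neurons, and Tfec a transcription factor of the MITF family found mainly in macrophages. In some tumors the chromosome segment that holds MET is known to be gained in copy number. DNA copy number was not measured in these libraries.

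On the GRCm38 assembly with GENCODE M21 gene models, Met (ENSMUSG00000009376.15) spans chr6:17463800-17573980 on the plus strand. The 10 genes lie within 2794 kb, from Mdfic, which starts 1743 kb before Met, to Cttnbp2, which starts 903 kb after it. Tfec starts 630 kb before Met, Tes 399 kb, Cav2 183 kb and Cav1 157 kb. On the other side Capza2 starts 172 kb after Met, St7 229 kb and Wnt2 525 kb. Promoter windows of 300 bases, 250 before and 50 after the RefSeq start on GRCm38.p6, are printed for Met, for Capza2 and Tes, which among the 10 genes were most like it in level on either side, and for Tfec, whose level did not. Capitals mark matches on either strand to 4 motifs, which share no bases in these windows. The GC box was searched as GGGCGG and the AP-1 site as TGANTCA. The CCAAT box was searched by its name and the TATA box, which binds the basal transcription machinery, as TATAAA.
Met, chr6:17463707-17464006, plus strand: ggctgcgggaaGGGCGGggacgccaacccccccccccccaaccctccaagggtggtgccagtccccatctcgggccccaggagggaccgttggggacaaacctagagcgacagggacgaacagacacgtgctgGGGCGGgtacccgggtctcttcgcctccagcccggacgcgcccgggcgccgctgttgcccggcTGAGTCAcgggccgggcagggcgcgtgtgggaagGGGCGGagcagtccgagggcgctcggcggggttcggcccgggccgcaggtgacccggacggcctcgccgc
Capza2, chr6:17636760-17637059, plus strand: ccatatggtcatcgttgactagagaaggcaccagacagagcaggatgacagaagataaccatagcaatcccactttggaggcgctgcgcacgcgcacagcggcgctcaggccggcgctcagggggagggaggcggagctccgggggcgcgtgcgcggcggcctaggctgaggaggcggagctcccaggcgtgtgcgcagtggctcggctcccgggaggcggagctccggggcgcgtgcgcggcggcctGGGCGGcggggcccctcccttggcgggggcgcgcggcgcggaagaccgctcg
Tes, chr6:17064899-17065198, plus strand: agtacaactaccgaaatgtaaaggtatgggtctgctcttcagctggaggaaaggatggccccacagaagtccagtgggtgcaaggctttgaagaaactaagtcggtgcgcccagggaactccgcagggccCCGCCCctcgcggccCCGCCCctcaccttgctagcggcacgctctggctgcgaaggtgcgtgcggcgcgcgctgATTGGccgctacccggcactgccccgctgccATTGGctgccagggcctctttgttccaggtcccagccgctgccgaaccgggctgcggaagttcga
Tfec, chr6:16898392-16898691, minus strand: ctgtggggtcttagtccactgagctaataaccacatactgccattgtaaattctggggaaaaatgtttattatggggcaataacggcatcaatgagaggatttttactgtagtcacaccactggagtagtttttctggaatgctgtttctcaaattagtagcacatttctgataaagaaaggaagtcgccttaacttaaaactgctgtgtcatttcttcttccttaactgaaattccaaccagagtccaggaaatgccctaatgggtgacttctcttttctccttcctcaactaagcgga
The Met window held 3 GC boxes and 1 AP-1 site, the Capza2 window 1 GC box, and the Tes window 2 GC boxes and 2 CCAAT boxes. No such letters were found in the Tfec window. Of the 32851 RefSeq windows of this length, 35.7% held a GC box, 7.81% an AP-1 site, 37.4% a CCAAT box and 13.6% a TATA box. Guanine and cytosine made up 75.7% of the Met window, 73% of the Capza2 window, 64.7% of the Tes window and 40.3% of the Tfec window, against a median of 52.7% over all windows.

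The values are TPM, length-corrected read shares scaled to a fixed sum, which hide how many reads a library had, so counting error is not stated. Nothing in the labels states that the mice of a group are littermates, and each mouse is represented by a single tumor or gland. Trim24, the overexpressed gene, had 10.6 to 24.1 TPM in the 6 tumors labelled Trim24COE and 14.5 to 22.4 TPM in the 4 control glands, with 5.34 to 10.04 TPM in the non-TRIM24 tumors. The total Trim24 level therefore did not separate the libraries labelled Trim24COE from the glands, and the group names used here are those of the labels. The study reports higher Trim24 in Trim24COE tumors than in MMTV-Cre glands. Its methods were qRT-PCR for the transcript and tissue staining for FLAG and TRIM24 protein. It also describes the qRT-PCR result as predicted by its RNA-seq, which the TPM values given here do not show. The 2 repeat libraries ran lower for these genes: the median ratio of repeat to first library over the 10 genes was 0.864 for gland 133 and 0.758 for tumor 3956, against 1.05 and 0.95 over all genes with at least 1 TPM in both. In tissue pieces such as these, fewer cells of a type and less RNA per cell cannot be told apart. The summed level of 10 adipocyte markers was 26748 and 39359 TPM in glands 133 and 392, against 1789 and 1971 TPM in glands 417_3 and 517_3. Epithelial markers, 10 genes that include Epcam and Krt8, summed to 976 and 1643 TPM in the first pair of glands and to 6126 and 6494 TPM in the second, so the control glands themselves form 2 unlike pairs.

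Met was far above the glands in 4 of the 6 Trim24COE tumors and at gland level in the other two. The glands had 20.9 TPM (133), 21.2 TPM (392), 42.4 TPM (417_3) and 29.7 TPM (517_3). The metaplastic carcinosarcomas had 227 TPM (64), 777 TPM (567) and 792 TPM (897). The carcinomas had 28.5 TPM (89), 1292 TPM (273_5) and 30.9 TPM (3956), with 19.6 TPM in the repeat library of 3956. All 3 carcinosarcomas lay above every gland, by 8.92 to 31.1 times the median gland, whereas the carcinomas held both the highest Trim24COE tumor, at 50.8 times the median gland, and the lowest. As group means this gave 599 ± 322 TPM in carcinosarcomas (SD, n = 3), 451 ± 729 TPM in carcinomas (SD, n = 3) and 28.5 ± 10.1 TPM in glands (SD, n = 4). On the log2(TPM + 1) scale, Met was 4.20 higher in carcinosarcomas than in glands (means 9.02 and 4.83) and 2.28 higher than in carcinomas (mean 6.74). The latter difference ranged from 1.36 to 4.08 when single tumors were left out, and was 4.08 without carcinoma 273_5.

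Capza2 followed Met at a higher level. It had 70.0 to 109 TPM in the glands and 1877, 3771 and 4280 TPM in carcinosarcomas 64, 567 and 897. In the carcinomas it had 116 TPM (89), 10331 TPM (273_5) and 174 TPM (3956). The repeat library of 3956 held 102 TPM, within the range of the glands. Tumor 273_5 stood at 107 times the median gland, and Capza2 was there the 7th most abundant transcript of the library, taking 1.03% of its TPM. In glands it ranked between 1234 and 1502, and in the metaplastic carcinosarcomas between 21 and 91.

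St7 had 6.42, 6.56, 15.5 and 15.4 TPM in glands 133, 392, 417_3 and 517_3. It had 138, 195 and 393 TPM in carcinosarcomas 64, 567 and 897, from 12.6 to 35.8 times the median gland. Carcinoma 273_5 had 719 TPM, while 89 and 3956 had 9.25 and 14.2 TPM and lay inside the range of the glands. Tes had 14.6, 18.5, 94.4 and 86.8 TPM in the same 4 glands, the higher pair being the glands with the higher epithelial marker sums, whose part in it was not tested. In carcinosarcomas 64, 567 and 897 it had 1172, 2388 and 3454 TPM. Carcinoma 273_5 had 4042 TPM, 89 had 71.3 TPM and 3956 had 149 TPM. Tes in tumor 3956 was thus above every gland, in its repeat library as well at 121 TPM, while Met was not.

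Together the 10 genes took 0.544% to 1.38% of all TPM in the carcinosarcomas and 2% in carcinoma 273_5. They took 0.0425% and 0.0571% in carcinomas 89 and 3956, and 0.0431% to 0.105% in the glands. The plot of levels by library shows this split between the carcinomas for Tes, Cav2, Met, Capza2 and St7.

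**Figure D1:**
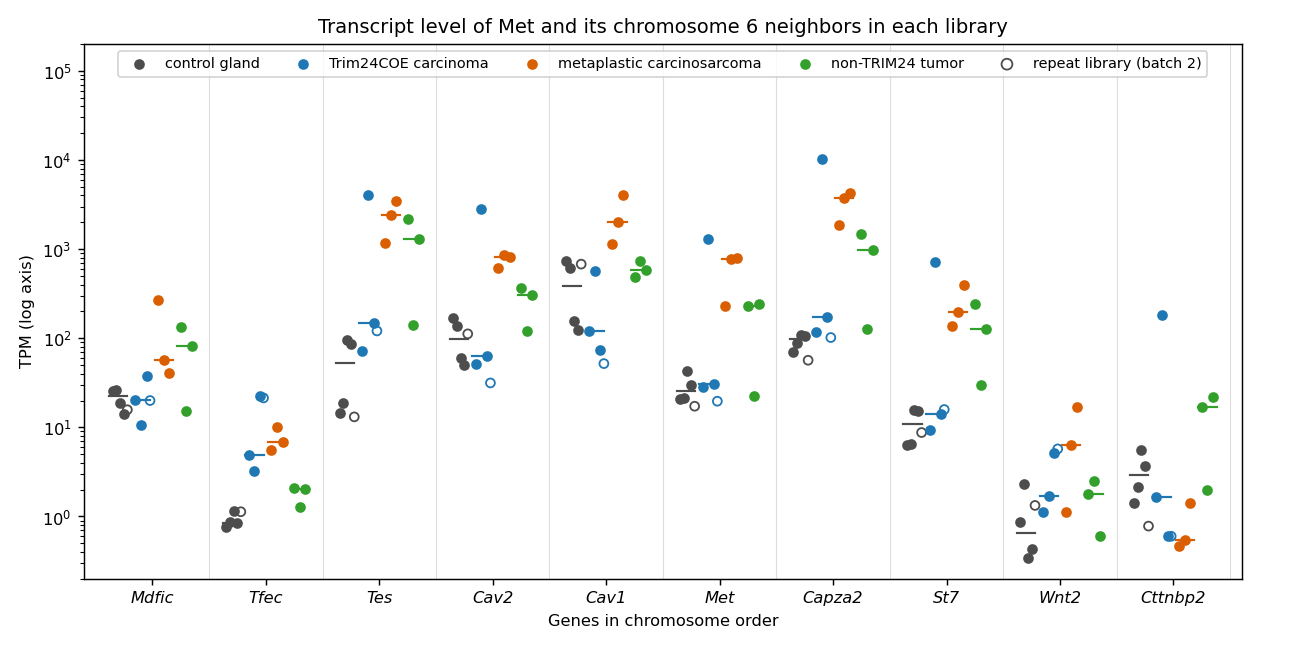
TPM (log axis) of Met and its 9 neighbors in chromosome order, 1 point per library, colored by group, with open points for the 2 repeat libraries and a bar at the median of each group's first libraries. Carcinoma 273_5 is the single high blue point for Tes, Cav2, Met, Capza2, St7 and Cttnbp2, where the first libraries of the other 2 carcinomas lie at 0.61 to 174 TPM.

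The caveolin genes, which lie between Tes and Met, differed from them in the glands. Cav1 had 740 and 619 TPM in glands 133 and 392, the pair with high adipocyte markers, and 154 and 124 TPM in glands 417_3 and 517_3. Cav2 had 168, 136, 60.4 and 49.9 TPM in the same order. Caveolae are abundant in adipocytes, and the part of the adipocyte signal in these levels was not tested. In carcinosarcomas 64, 567 and 897, Cav1 had 1144, 2032 and 4019 TPM, all above every gland, and Cav2 had 612, 864 and 815 TPM, likewise above every gland. Carcinoma 273_5 parted the pair: Cav2 reached 2816 TPM there, 28.7 times the median gland and the highest of all libraries, while Cav1 at 567 TPM lay inside the range of the glands. Cav1 was 3.61 higher on the log2(TPM + 1) scale in carcinosarcomas than in carcinomas (means 11.04 and 7.43), with no overlap between the 3 and 3 tumors. Mdfic was likewise higher in all 3 carcinosarcomas than in every carcinoma. How many of all genes part small groups in this way was not counted, for these genes or for the other separations given here. Carcinomas 89 and 3956 had 120 and 73.5 TPM of Cav1, both under the lowest gland.

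Genes toward the ends of the segment each had a pattern of their own. Mdfic had 14.1 to 26.1 TPM in glands and 265 TPM in carcinosarcoma 64, but 56.6 and 40.7 TPM in carcinosarcomas 567 and 897 and only 10.8 TPM in carcinoma 273_5, where Met was highest. Carcinoma 3956 had 37.9 TPM in its first and 19.99 TPM in its repeat library. Cttnbp2 had 1.43 to 5.63 TPM in glands and 182 TPM in carcinoma 273_5, which was 61.8 times the median gland. Every other Trim24COE tumor had 0.47 to 1.65 TPM of Cttnbp2, in part under the lowest gland.

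Wnt2 was near the limit of these tables, with 0.34 to 2.30 TPM in glands. It had 16.8 TPM in carcinosarcoma 897, 6.34 TPM in 567 and 5.21 TPM in carcinoma 3956, and 1.12 to 1.68 TPM in tumors 64, 89 and 273_5. Tfec had 0.77 to 1.15 TPM in glands and 3.21 to 22.3 TPM in the 6 Trim24COE tumors, all above the glands. Its highest value was that of carcinoma 3956, at 22.3 TPM and 21.4 TPM in the repeat, and its lowest among these tumors was that of 273_5, the tumor with the most Met. The summed level of 9 macrophage markers, among them Csf1r and Cd68, was 6283 TPM in 3956 and 1784 TPM in 273_5, the second highest and the lowest of the 6 tumors, and 474 to 1222 TPM in glands. The part of macrophages in the Tfec level was not tested.

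Non-TRIM24 tumors were compared as levels only, beside the gland library of the same batch. The repeat library of gland 133 had 17.3 TPM of Met, and tumors 219, FVB001 and FVB002 had 232, 22.6 and 240 TPM. Tumors 219 and FVB002 were thus 13.4 and 13.9 times that gland, and FVB001 1.31 times. For Met, repeat over first library was 0.828 in gland 133 and 0.635 in tumor 3956. Capza2 had 1484, 128 and 965 TPM in the same 3 tumors, and Tes had 2167, 142 and 1295 TPM. The repeat library of gland 133 had 56.6 TPM of Capza2 and 13.1 TPM of Tes. St7 had 240, 29.9 and 127 TPM, against 8.75 TPM in the repeat library of gland 133. A high level of Met with Capza2, Tes and St7 was therefore also found in 219 and FVB002, which are not labelled Trim24COE. In FVB001, Tes was 10.8 times, St7 3.42 times and Capza2 2.3 times that gland, with Met at 1.31 times. In the first libraries, gland 133 had the lowest Tes, Met, Capza2 and St7 of the glands, so these ratios are taken over the lowest gland. Cttnbp2, with 16.9 and 21.7 TPM in 219 and FVB002, and Mdfic, with 132 and 81.2 TPM, were above every gland in both as well, whereas no Trim24COE tumor had both of these genes above every gland. Cav1 did not follow in this group: 219 and FVB002 had 491 and 586 TPM, under the 739 TPM of FVB001 and the 678 TPM of the repeat of gland 133. The adipocyte markers summed to 55420 TPM in FVB001, 28175 TPM in FVB002 and 170 TPM in 219.

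The genes were then read in their order along the chromosome. Differences are given as log2(TPM + 1) minus the median of the 4 glands for protein-coding genes with at least 1 TPM in at least 3 libraries, and a difference of 2, or 4-fold, was taken as raised. These limits and the stretches below were chosen after the values were seen. Over the 6 genes from Tes to St7, the median difference was 3.38 in carcinosarcoma 64, 4.52 in 567, 5.04 in 897 and 5.82 in carcinoma 273_5. It was 0.03 in 89 and 0.37 in 3956. Among non-TRIM24 tumors it was 3.54 in 219, 3.26 in FVB002 and 0.82 in FVB001. In the glands it lay between -0.36 and 0.38. The non-TRIM24 tumors are of batch 2 and are set here against the glands of batch 1, so a batch difference cannot be told apart. The same baseline holds for all their differences and ranks below. Against it, the batch 2 repeat libraries of gland 133 and tumor 3956 had medians of -0.36 and -0.13 over these 6 genes. The raised genes were not an unbroken block in every tumor. Counted outward from Met, the run of raised genes was Met to St7, 3 genes, in tumors 64, 273_5, 219 and FVB002, since Cav1 differed there by 1.88, 0.87, 0.67 and 0.92. Cav2 was under the limit as well in 219 and FVB002, at 1.99 and 1.72, while Tes, beyond the caveolin genes, was raised in all 4. The run reached from Tfec to Cftr, 9 genes, in 567 and from Tfec to Wnt2, 8 genes, in 897.

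Beyond St7 the picture broke up gene by gene. Lsm8, a subunit of a nuclear RNA-binding complex that is not one of the 10 genes and was named after its values were seen, starts 1385 kb after Met. It had 37.2 to 56.1 TPM in glands and 2206, 213 and 4058 TPM in carcinosarcomas 64, 567 and 897. It had 4428 TPM in carcinoma 273_5 and 79.1 and 71.2 TPM in 89 and 3956. Tumors 219, FVB001 and FVB002 had 2009, 142 and 982 TPM of Lsm8. So in tumor 64 Lsm8 stood at 44.2 times the median gland while Wnt2 and Cttnbp2, which lie between it and Met, did not exceed 1.74 times. Cftr, the chloride channel gene between Wnt2 and Cttnbp2, was at 50.6 TPM in tumor 567, at 6.26 TPM in 273_5 and at 0.01 to 0.1 TPM in glands. Ankrd7, next to Lsm8, had 4.46, 3.11 and 5.18 TPM in 273_5, 897 and 219 and at most 0.25 TPM in glands. The next expressed protein-coding gene, Kcnd2, starts 3752 kb after Met and was at or below 0.07 TPM in every tumor. Over the 47 protein-coding genes from Kcnd2 to 15 Mb beyond Met, the median difference lay between -0.62 and 0.19 in the 9 tumors.

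On the side toward the chromosome start, tumor 64 differed from all others. Of the 35 protein-coding genes between the chromosome start and Gpr85, 20 were raised in tumor 64, with a median difference of 2.61, and 1 or 2 in each of the other 5 Trim24COE tumors, with medians of -0.33 to 0.15. No non-TRIM24 tumor raised any of the 35. Sem1, Tmem106b and Bmt2 were named after their values were seen. Sem1, a small proteasome subunit 10907 kb before Met, had 2652 TPM in tumor 64 and 97.7 to 215 TPM in the other Trim24COE tumors. Tmem106b, 4394 kb before Met, had 227 TPM in tumor 64 and 18.0 to 45.3 TPM in the others. Nearer to Met, 2610001J05Rik, Gpr85 and Bmt2 had 572, 42.5 and 74.0 TPM in tumor 64, against 31.1 to 101, 0.61 to 5.71 and 9.26 to 12.4 TPM in the other 5. Mdfic, at 265 TPM in tumor 64, lies between these genes and Met.

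**Figure D2:**
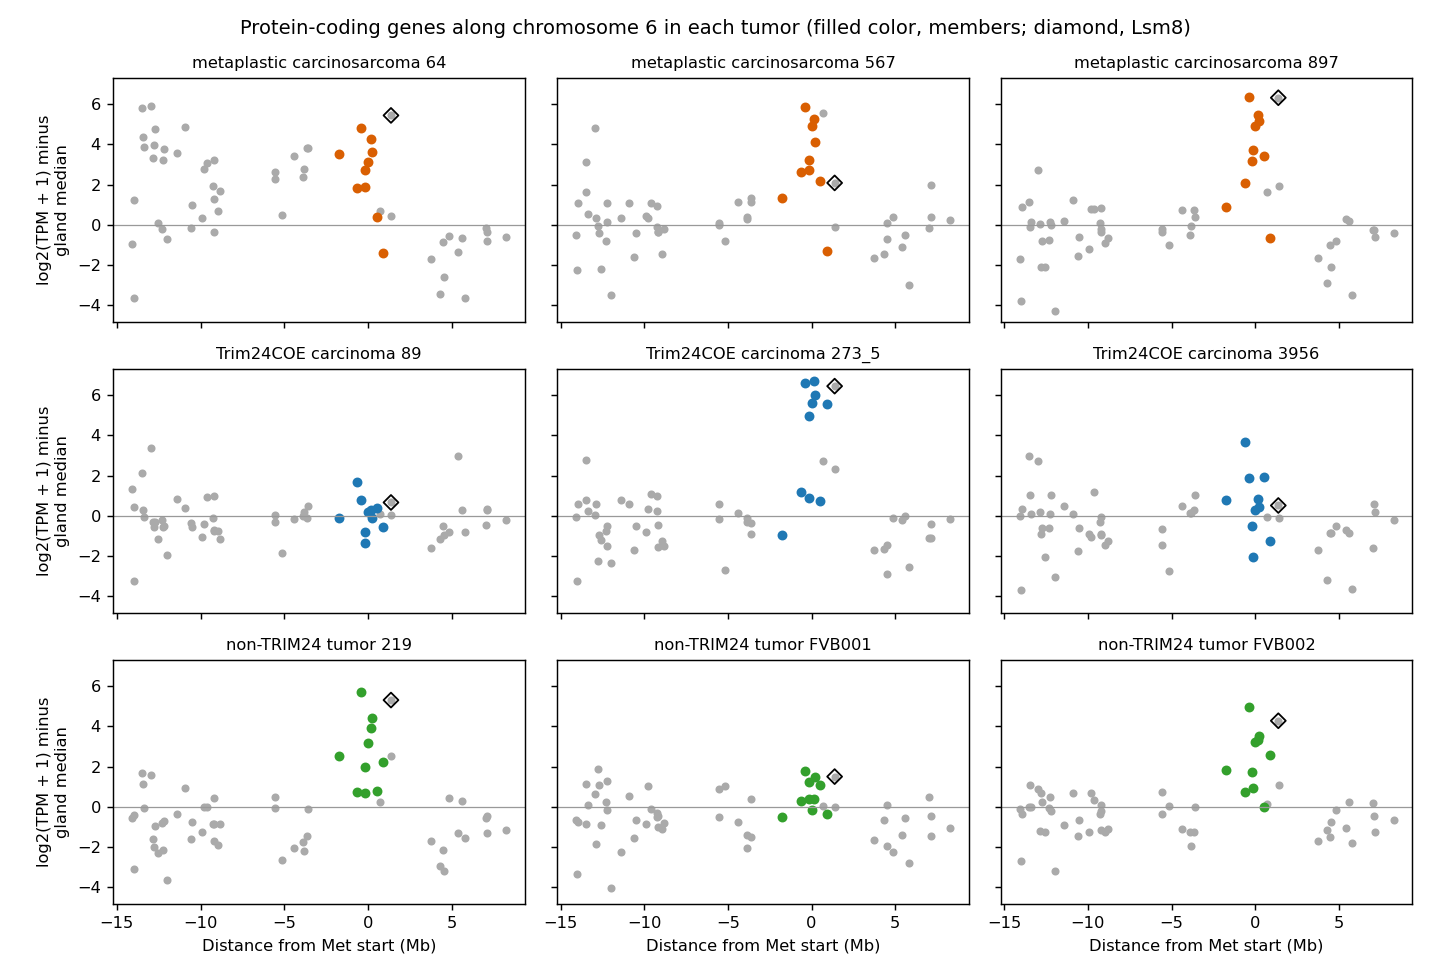
Each panel is a tumor, each point a protein-coding gene at its distance from the start of Met (Mb), and the vertical axis is log2(TPM + 1) minus the median of the 4 control glands of batch 1. Colored points are the 10 genes and the diamond is Lsm8. The genes from Tes to St7 have medians of 3.26 to 5.82 in carcinosarcomas 64, 567 and 897, carcinoma 273_5 and tumors 219 and FVB002, and in carcinosarcoma 64 the gray points toward the chromosome start are high too, 20 of 35 of them at 2 or more.

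RNAs without a protein product in the segment were read with caution, since the sources used here do not state whether the counting used strand. Gm15473 and Gm4876 lie next to and across the start of Tes, Gm4876 on the opposite strand. Gm15473 had 5.36, 10.7 and 10.2 TPM in carcinosarcomas 64, 567 and 897, 10.4 TPM in carcinoma 273_5 and at most 0.14 TPM in glands. Gm4876 had 13.1 to 48.7 TPM in those 4 tumors and 17.1, 16.2, 1.65 and 1.95 TPM in glands 133, 392, 417_3 and 517_3. Reads of Tes and Gm4876 cannot be told apart without strand.

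The stretch of 5 neighboring expressed genes from Tes to Capza2 was placed among all 14116 such stretches of the genome by its median difference from the glands. In carcinoma 273_5 it was the highest stretch of the genome, at 5.63, level with the overlapping stretches from Cav2 to St7 and from Cav1 to Wnt2. It ranked 2nd in carcinosarcoma 897 at 4.93, 8th in 567 at 4.90, 24th in 64 at 3.13, 6th in FVB002 at 3.20 and 18th in 219 at 3.16. In 897 the stretch from Cav2 to St7 had the same value. In all of these tumors the median of the stretch was the difference of Met itself, so the rank restates the level of Met. In carcinomas 89 and 3956 the highest stretch that holds Met ranked 6593rd and 3269th. In FVB001 it ranked 190th, at 1.09. The highest stretch was Gzme to Gzmc, of the granzyme family, on chromosome 14 in 567, S100a4 to S100a9 on chromosome 3 in 64 and Lgals8 to Prl2c5 on chromosome 13 in 219. In tumor 64 the 2nd stretch lay at chr6:3498382-4541544, from Vps50 to Col1a2, at 4.39.

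Likeness to Met was measured by Pearson's r of log2(TPM + 1) over the first libraries of the 10 mice of batch 1, for 16049 genes. Capza2 ranked 1st at r = 0.99, St7 2nd at 0.987, Tes 6th at 0.964 and Cav2 18th at 0.917. Cav1 ranked 721st at 0.686, Wnt2 1805th at 0.535, Tfec 2895th at 0.403, Cttnbp2 3166th at 0.373 and Mdfic 4504th at 0.229. Spearman's rho was 0.939, 0.988, 0.988 and 0.661 for Capza2, St7, Tes and Cav2. The median r over all genes was -0.146. The mice fell apart at a gap in Met, with 6 mice at 20.9 to 42.4 TPM and 4 tumors at 227 to 1292 TPM, so r records mainly that gap. Within the 6 lower mice, 4 glands and carcinomas 89 and 3956, r was 0.884 for St7, 0.834 for Tes and 0.586 for Capza2, and it was -0.779 for Cav2 and -0.749 for Cav1. Among the 15232 genes compared in these mice, St7 ranked only 1842nd, Tes 2656th and Capza2 5618th. Without the mice farthest from the median of Met, 273_5 and 897, Capza2, St7 and Tes kept r of 0.98, 0.975 and 0.938, while Cttnbp2 turned to -0.527.

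**Figure D3:**
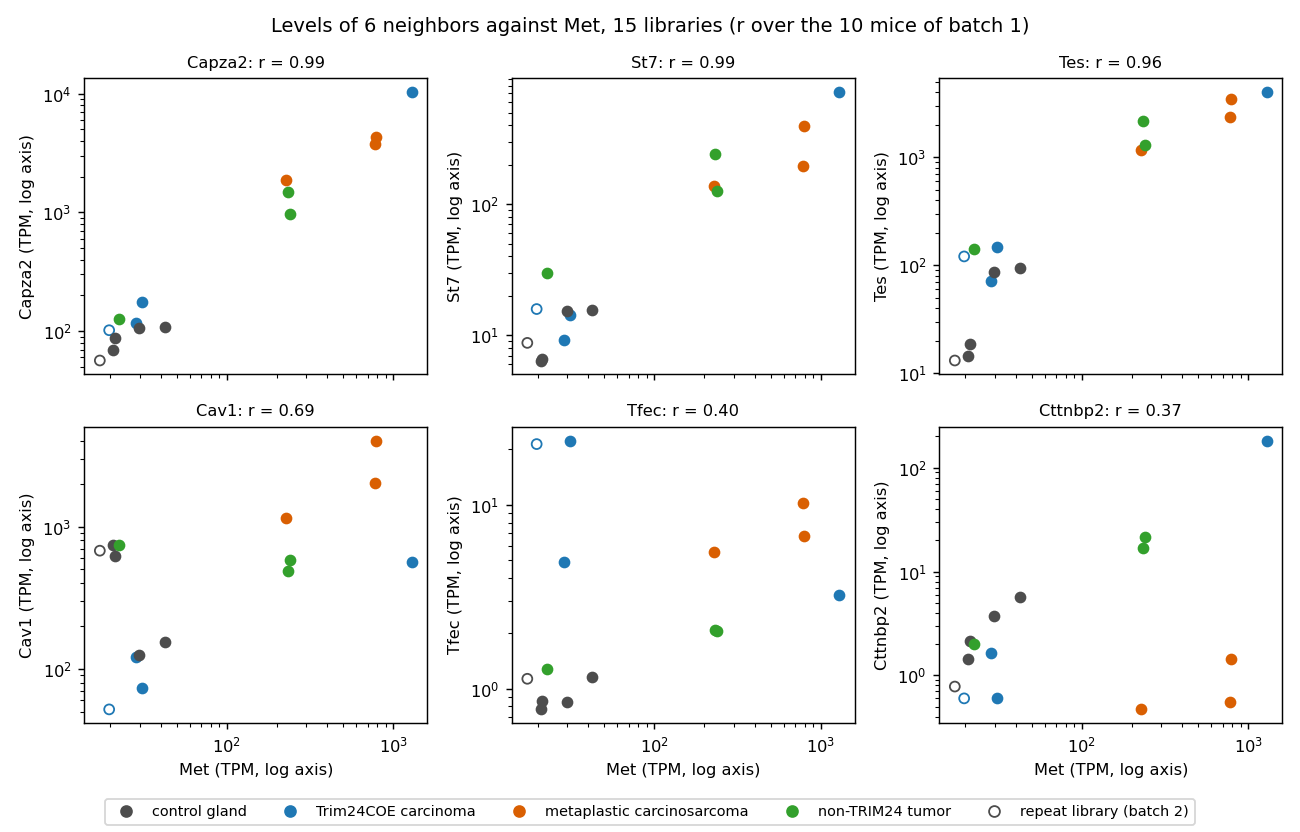
TPM of 6 neighbors against TPM of Met (both axes logarithmic) in the 15 libraries, colored by group, open points for repeat libraries, with r over the 10 mice of batch 1 in each panel title. Capza2, St7 and Tes rise with Met across the gap between 42.4 and 227 TPM, Tfec is highest in tumor 3956 where Met is at 30.9 TPM, and Cttnbp2 reaches 182 TPM in carcinoma 273_5 and at most 21.7 TPM in all other libraries.

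Outside the set, the RNA beside Tes, Gm15473, was most like Met at r = 0.983, and the pseudogene Gm13127 on chromosome 4 had 0.962. Among the named protein-coding genes most like Met were Yaf2 (r = 0.974), Tomm22 (0.962), Pycrl (0.952) and Rps19bp1 (0.947), which all lie on chromosome 15, from the start of Pycrl at 75916477 to the end of Yaf2 at 93336935 on GRCm38. In the 4 tumors with high Met, their differences from the glands were smaller than those of Capza2, Tes and St7. Yaf2, a polycomb-associated factor, had 54.4, 60.2, 65.2 and 65.8 TPM in tumors 64, 567, 897 and 273_5, 29.8 and 28.7 TPM in 89 and 3956 and 21.9 to 25.7 TPM in glands. Tomm22, a subunit of the mitochondrial import receptor, had 178, 196, 255 and 253 TPM in the same 4 tumors, 104 and 117 TPM in 89 and 3956 and 80.4 to 107 TPM in glands. Of the 50 genes most like Met, 17 lay on chromosome 15, which holds 3.73% of the genes compared, and 5 on chromosome 6, which holds 5.63%. Over these 17 genes the median difference from the glands was 0.97 to 1.36 in tumors 64, 567, 897 and 273_5 and 0.26 and 0.21 in 89 and 3956. In tumors 219, FVB001 and FVB002, which took no part in their choice, it was 0.64, 0.01 and 0.57. These genes were selected on their likeness to Met, so the values are a description.

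The ligand of MET and the other parts of its pathway were read from a list of 50 genes, tested with limma on log2(TPM + 1) across all genes with Benjamini-Hochberg adjustment over all of them. Hgf itself did not pass the test in any of the 3 comparisons as fitted without a covariate. With the adipocyte covariate it was lower in carcinosarcomas than in glands, with a difference of -1.96 (adjusted p = 0.0449 in limma), whereas the difference without it was 0.51 (SE 0.966, adjusted p = 0.741 in limma). The adipocyte marker sums were 173 to 249.5 TPM in carcinosarcomas, 125 to 1284 TPM in carcinomas and 1789 to 39359 TPM in glands. In the comparisons with glands this covariate thus did not overlap between the groups, and its effect and that of the group cannot be told apart. The adjusted Hgf difference therefore shows no lower Hgf by itself. It had 1.76, 1.42, 33.2 and 12.2 TPM in glands 133, 392, 417_3 and 517_3, 12.2, 3.76 and 17.5 TPM in carcinosarcomas 64, 567 and 897, and 3.31, 2.09 and 2.00 TPM in carcinomas 89, 273_5 and 3956. Its difference between carcinosarcomas and carcinomas was 1.62 (SE 0.523, adjusted p = 0.242 in limma), with every carcinosarcoma above every carcinoma. In tumor 273_5, which had the most Met, Hgf was at 2.09 TPM.

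Between Trim24COE tumors and glands, 7 of 46 tested genes of the list passed the threshold of 0.05, 4 higher and 3 lower in tumors. Of all 15196 genes tested, 17.1% passed, 7.96% higher and 9.13% lower. The median difference was 0.18 over the list and -0.04 over all genes. The co-receptors Cd44 and Sdc1, the plasminogen activator Plat and the receptor-turnover adaptor Sh3kbp1 were higher in tumors, Sdc1 by 2.90 (SE 0.596, adjusted p = 0.00862 in limma). The adaptor Gab1, the kinase subunit Pik3r1 and the protease Tmprss13 were lower, Pik3r1 with a difference of -2.53 (SE 0.6, adjusted p = 0.0167 in limma). With the adipocyte marker level as a covariate, 2 of the 46 passed.

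Between metaplastic carcinosarcomas and glands, 12 of 46 passed, 5 higher and 7 lower, a share near that of all genes. The shares over all 15287 genes were 23.0% in either direction, 9.83% higher and 13.1% lower, and the medians 0.09 over the list and -0.12 over all genes. With median-of-ratios scaling 2236 genes were higher and 1954 lower, against 1503 and 2008 without it, the median of all genes moved to 0.03, and 10 genes of the list were higher and 7 lower. With the adipocyte covariate 1637 genes were higher and 3381 lower, the median of all genes was -0.30, and 3 genes of the list were higher and 14 lower. Of the list's proteases and inhibitors all 7 tested members passed, 2 higher and 5 lower. Of the co-receptors 3 of 7 passed, and of the adaptors and effectors 1 of 19. Of the turnover genes 1 of 11 passed, and of the ligands and related receptor 0 of 2. Plau, the urokinase that can cut the HGF precursor, had 144, 213 and 156 TPM in carcinosarcomas 64, 567 and 897 and 28.4 to 36.1 TPM in glands. Plat was higher as well. The membrane proteases St14, Hpn and Tmprss13 and the Kunitz inhibitors Spint1 and Spint2, which block HGF-activating proteases, were lower. The epithelial markers summed to 384 to 1425 TPM in these carcinosarcomas and to 976 to 6494 TPM in glands, and their part in the lower levels was not tested. Spint1 had 0.8, 1.12 and 0.17 TPM in these carcinosarcomas and 6.04 to 56.2 TPM in glands. Without carcinosarcoma 64 the count was 7 of 46.

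Between metaplastic carcinosarcomas and Trim24COE carcinomas, 4 of 45 passed, none higher and 4 lower in carcinosarcomas, namely Spint1, Spint2, St14 and Itga6. As far as the classes rest on the study's call from RNA-seq, this test is not independent of them. Of 14193 genes, 0.698% passed, 0.113% higher and 0.585% lower, and the medians were -0.21 over the list and -0.10 over all genes. Spint2 had 12.2, 34.4 and 4.8 TPM in carcinosarcomas 64, 567 and 897 and 447, 383 and 387 TPM in carcinomas 89, 273_5 and 3956. St14, which encodes matriptase, had 2.10, 5.86 and 1.18 TPM against 95.8, 73.1 and 106 TPM. Spint1 had a difference of -4.36 (SE 0.315, adjusted p = 0.00734 in limma), and its carcinomas held 32.5, 30.2 and 36.2 TPM. Itga6, the laminin receptor subunit that associates with MET, had 17.8, 32.1 and 28.7 TPM against 102, 268 and 257 TPM. Carcinoma 273_5 thus shared the high Met of the carcinosarcomas and the Spint1, Spint2 and St14 levels of the carcinomas. The 10 epithelial markers summed to 384 to 1425 TPM in carcinosarcomas, with 8 to 10 of them at 1 TPM or more, and to 2807 to 6615 TPM in carcinomas, with 9 or 10. Their part in the lower levels of these 4 genes was not tested. Without carcinosarcoma 64 none of the list passed in limma, with 8 genes at an unadjusted p under 0.05, and the same counts were found without carcinoma 89. With the adipocyte covariate none passed either, with 6 at an unadjusted p under 0.05, and without carcinosarcoma 897 a single gene did.

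**Figure D4:**
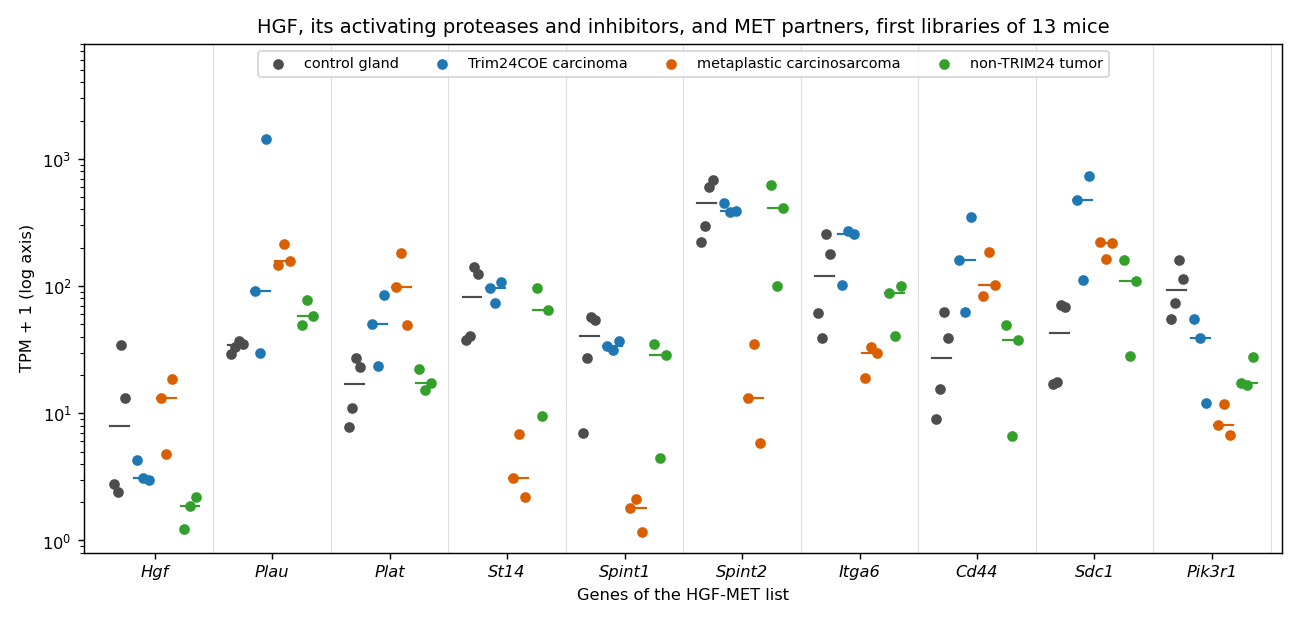
TPM + 1 (log axis) of 10 genes of the HGF-MET list in the first libraries of the 13 mice, 1 point per mouse, with a bar at the median of each group. The 3 carcinosarcomas reach at most 5.86 TPM for St14 and 1.12 TPM for Spint1, below all other mice, whereas Plau reaches 1442 TPM in carcinoma 3956.

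Proteins that act with the neighbors of Met were read from a list of 14 genes of caveolae, the actin capping protein and the MITF family. Of 11 tested between Trim24COE tumors and glands 2 passed, a share near the 17.1% of all genes. Capza1 was higher, by 1.07 (SE 0.238, adjusted p = 0.0126 in limma), and Cavin2 lower, with a difference of -2.24 (SE 0.574, adjusted p = 0.0225 in limma). Capza1, the other alpha subunit of the capping protein, had 39.0 to 66.9 TPM in the 6 tumors and 19.9 to 33.5 TPM in glands. Its level did not follow Capza2: tumors 273_5 and 3956, with 10331 and 174 TPM of Capza2, had 42.6 and 66.9 TPM of Capza1. Cavin2, a caveola coat protein, had 133, 126, 71.6 and 56.6 TPM in glands 133, 392, 417_3 and 517_3, and 6.38 to 44.9 TPM in the tumors. With the adipocyte covariate neither passed, and without gland 133 or without gland 392 Capza1 alone did. Without carcinoma 273_5, 3 genes passed. Of 12 tested between carcinosarcomas and glands, Capza1 alone passed, against 23.0% of all genes, and it did not pass without carcinosarcoma 64 or 567. Of 11 between carcinosarcomas and carcinomas none did, with 2 at an unadjusted p under 0.05 in limma. The MITF relatives of Tfec, Mitf, Tfeb and Tfe3, did not pass in any comparison.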

How the data were processed

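RNA-seq of mouse mammary tumors and glands was deposited by the authors as TPM per gene and library. Per the study's methods, reads were aligned with STAR to GRCm38 and quantified with RSEM on GENCODE M14 models. The submitters' processing notes also name TopHat, Cufflinks, DESeq and edgeR without their roles. Labels and methods name different library kits, and strand use in counting is not given in the sources used here. The 10 genes, the gene lists and the tests were chosen with earlier results of these data known. Genes were placed with GENCODE M21.

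Groups were compared over the first libraries of batch 1 with limma 3.58.1 (R 4.3.3) on log2(TPM + 1) with a trended variance, for genes that reached 1 TPM in a number of libraries equal to the smaller group's size, and a Benjamini-Hochberg threshold of 0.05. Fold changes on this scale understate those of low genes. Genes named from the lists are those past the threshold, at most 6 in each direction by smallest adjusted p, and Hgf. Likeness to Met is Pearson's r and Spearman's rho, with no p. Of the genes most like Met, 1 is not reported here. Alternatives changed the pseudocount, the filter, the scaling, the samples in the fit, an adipocyte covariate and each library left out. Other marker lists were also summed. In carcinosarcomas, carcinomas and glands, fibroblast markers gave 2108 to 8388, 332 to 3096 and 635 to 1598 TPM, and endothelial markers 211 to 470, 82.7 to 248 and 378 to 596 TPM. Smooth muscle markers gave 166 to 1118, 95.4 to 348 and 283 to 2964 TPM, and skeletal muscle markers 51 to 1041, 25.6 to 342 and 13.2 to 2275 TPM.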

Additional observations from a re-analysis of the deposited data

Results flagged for a closer look

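Cttnbp2 in carcinoma 273_5, at 182 TPM, lay far from the other 5 Trim24COE tumors: its gap to the nearest of them took 0.878 of the range of the 6 tumors on the log2(TPM + 1) scale. In all, 58 groups of samples over 29 genes were examined in this way, of which chance flags about 1 in 20, and this was the single one found. That is no more than chance gives, and Cttnbp2 was chosen with its levels known, so the flag is a description only. Between metaplastic carcinosarcomas and Trim24COE carcinomas, 4 genes of the HGF-MET list differed in limma: Spint2 by -4.86 (adjusted p = 0.0207), St14 by -4.67 (adjusted p = 0.0123), Spint1 by -4.36 (adjusted p = 0.00734) and Itga6 by -2.87 (adjusted p = 0.0467) on the log2(TPM + 1) scale, each lower in 3 of 3 carcinosarcomas than in every carcinoma.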

How the results depend on the processing

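No paired analysis was possible because the labels number mice and give no replicate numbers shared between groups. The difference in Met kept its direction in every alternative run, from 2.57 to 3.66 (Trim24COE tumors against glands), 3.89 to 4.79 (carcinosarcomas against glands) and 1.36 to 4.08 (carcinosarcomas against carcinomas) with single libraries left out. Between Trim24COE tumors and glands the adipocyte covariate left 1217 genes, 2 of the HGF-MET list and 0 of the partner list (1 at an unadjusted p under 0.05 in limma); no filter left 1 partner gene, and all 3 groups in the fit gave 11 HGF-MET genes. With single libraries left out the counts were 1779 to 2911, 5 to 8 and 1 to 3. Between carcinosarcomas and glands no filter left 1623 genes, and scaling or all 3 groups gave 2 partner genes. With single libraries left out the counts were 1345 to 3093, 7 to 12 and 0 to 2, with 1345 genes without carcinosarcoma 64 and 1793 without 567. Between carcinosarcomas and carcinomas 0 genes passed without the filter (2871 at an unadjusted p under 0.05 in limma, 12 of the HGF-MET list) and 0 with the adipocyte covariate (1012 and 6). Left out singly, libraries gave 0 to 293 genes, 0 to 6 and 0 to 0: 0 genes without 64 or 89, 49 without 567, 14 without 897 and 293 without 3956. Likeness to Met turned for Mdfic over the 6 Trim24COE tumors (-0.032) and the 6 lower mice (-0.29), for Tfec over the 6 tumors (-0.44) and all 9 tumors (-0.008), for Cttnbp2 by rho (-0.018), without the 2 farthest mice (-0.53) and with single libraries left out (-0.458 to 0.538, the lowest without 273_5), and in the lower mice for Cav2 (-0.78), Cav1 (-0.75) and Wnt2 (-0.25). The likeness over the 9 tumors and the lower mice was added after seeing the data. The Hgf difference ranged with single libraries left out from -0.843 to 0.431 (Trim24COE tumors against glands, positive without gland 417_3) and from -0.033 to 1.242 (carcinosarcomas against glands, negative without gland 392), and turned in the latter with the adipocyte covariate (-1.96, adjusted p = 0.0449 in limma). Of 26 calls of single list genes, 13 were lost with the adipocyte covariate, 11 without the filter, and 1 to 10 with a library left out, 10 of them without 64. The cause was not tested. In the comparisons with glands the adipocyte covariate did not overlap between the groups, so its effect and that of the group cannot be told apart. Depth is unknown, so it sets no stated limit on low genes such as Wnt2.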
